A study of Drosophila melanogaster with 9 samples.

Results

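The genes described here are those of the Toll-family receptors that are patterned before the Drosophila embryo elongates, and 2 of the 3 named by their FlyBase symbols, Tollo and Toll-6, were followed in all 9 libraries of the series. They are 2 of 15682 gene identifiers in the expression table. The identifier that the annotation gives for the remaining receptor, 18w, could not be matched to a row. 18w was therefore not analysed here, and nothing is said of its level. RNA was measured by sequencing polyadenylated RNA from hand-sorted stage 5 embryos, when the blastoderm forms cells and zygotic transcription takes over from maternal RNA.

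Toll-family receptors are transmembrane proteins with leucine-rich repeats in their extracellular part. Toll itself is the maternally supplied receptor of the dorsal-ventral axis, whereas 18w, Toll-6 and Tollo are transcribed from the zygotic genome in overlapping stripes whose positions are set by pair-rule transcription factors such as Even-skipped and Runt. The combination of receptors on neighbouring cells polarises myosin at their shared boundary, and this planar polarity drives the cell rearrangements that lengthen the germband at gastrulation.

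The libraries were of 3 genotypes with 3 biological replicates each: ataxin-7, non-stop and OregonR, the wild-type strain. The non-stop gene encodes the enzyme of the SAGA coactivator complex that removes ubiquitin from histones, and Ataxin-7 tethers the module holding this enzyme to the rest of SAGA. For every genotype the egg collection lasted 2 h and was followed by 1 h of ageing at 25 °C. The alleles, and whether mothers, embryos or both were mutant, are not given in the sources used here. The ataxin-7 and OregonR libraries belonged to experiment 1013 and the non-stop libraries to experiment 1190, so that the non-stop genotype and its experiment cannot be told apart.

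Reads in genes ranged from 36914048 to 39280717 in the non-stop libraries and from 74836563 to 90037595 in the others. The non-stop gene (not) had 0.608, 0.662 and 1.11 RPKM (reads normalised to gene length and library size) in the non-stop libraries, against 52.3, 53.5 and 56.7 RPKM in OregonR. Atxn7 had 21.9, 25.5 and 28.0 RPKM in the libraries labelled ataxin-7, against 17.98, 19.1 and 19.8 RPKM in OregonR, so its RNA level does not check that label. Moreover, in ataxin-7 replicates 2 and 3 the genotype tag and the title disagree, and the title was followed. Over 7361 genes, ataxin-7 replicate 1 correlated less with its own replicates (r = 0.922 and 0.905) than with the non-stop libraries (r = 0.953 to 0.960), and OregonR replicate 3 also stood apart from OregonR 1 and 2 (r = 0.983 and 0.988, against 0.997 between those). The differences of Tollo and Toll-6 from OregonR and the correlations are given with and without them, and other results where stated.

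Both receptor genes lie on the forward strand of chromosome arm 3L in the BDGP6 annotation. Tollo (FBgn0029114) spans 3L:15235619-15242832 as a single exon of 7214 bases. Toll-6 (FBgn0036494) spans 3L:15336692-15344315, with 3 annotated transcripts. They are 93.9 kb apart, and neither overlaps another annotated gene.

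Tollo was the more abundant receptor in every library, and it was lower in both mutant genotypes. It had 6.22, 5.30 and 5.97 RPKM in ataxin-7 embryos, against 24.2, 23.4 and 14.3 RPKM in OregonR embryos. All ataxin-7 libraries lay below all OregonR libraries, and the lowest OregonR value, in replicate 3, was still more than any ataxin-7 value. In non-stop embryos Tollo had 0.533, 0.819 and 1.25 RPKM, below every library of the other genotypes. Behind these values stood 3233 to 3588 reads in ataxin-7 libraries, 158 to 352 reads in non-stop libraries and 7675 to 14589 reads in OregonR libraries.

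Group means of Tollo were 5.83 ± 0.477 RPKM in ataxin-7, 0.866 ± 0.358 RPKM in non-stop and 20.6 ± 5.54 RPKM in OregonR (SD, n = 3 each). The OregonR mean was thus 3.54 times that of ataxin-7 and 23.8 times that of non-stop. In limma fits across all genes on log2(RPKM + 1), a scale that understates changes of low genes, Tollo fell by 1.63 in ataxin-7 embryos relative to OregonR (SE 0.23, 95% interval -2.19 to -1.07, Benjamini-Hochberg adjusted p = 0.00735). In that comparison 16.4% of the 7049 genes tested were called lower at an adjusted p under 0.05. In non-stop embryos Tollo fell by 3.52 on the same scale (SE 0.23, 95% interval -4.06 to -2.97, limma adjusted p = 1.17e-05), where 35.1% of 7280 genes were called lower. Both comparisons use the same OregonR libraries.

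**Figure D1:**
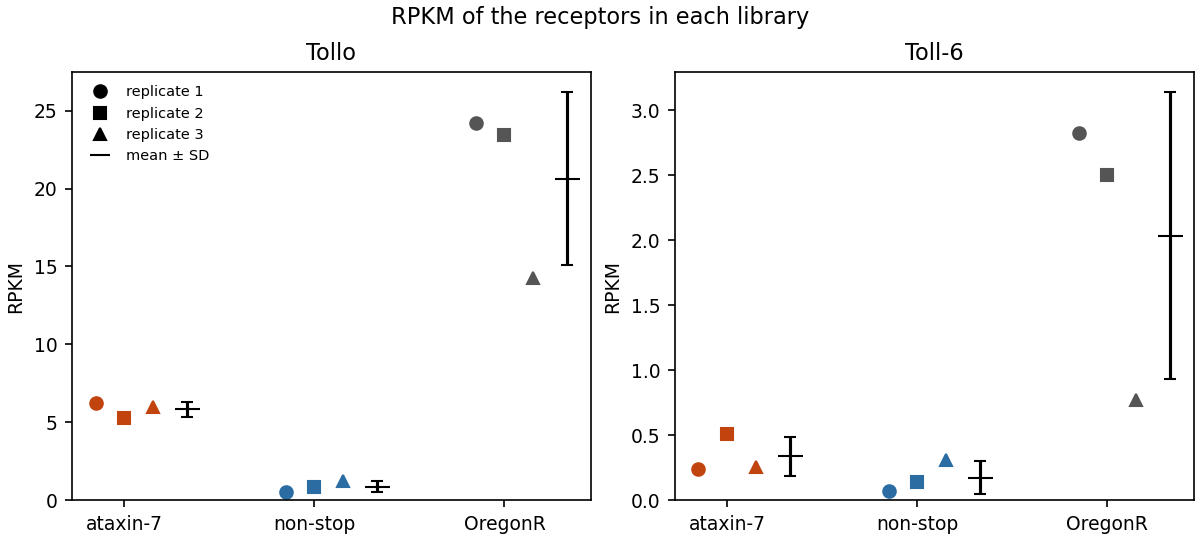
RPKM of Tollo (left) and Toll-6 (right) in each library, on linear axes that start at 0 and differ between the panels. Points are libraries, marked by replicate, with the mean ± SD of 3 libraries to the right of each genotype. For Tollo the genotypes do not overlap, and for both receptors OregonR replicate 3 is the lowest OregonR library.

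The mutants also differed from each other in Tollo. The non-stop mean of 0.866 RPKM stood against an ataxin-7 mean of 5.83 RPKM, which was 6.73 times as high. Tollo fell by 1.89 on the log2(RPKM + 1) scale in non-stop relative to ataxin-7 (SE 0.18, 95% interval -2.34 to -1.43, limma adjusted p = 0.00229), in a comparison where 16.7% of 6968 genes were called lower in non-stop. With 3 libraries per genotype the exact two-sided permutation test cannot go below p = 0.1, and it gave this value for Tollo in every comparison (Benjamini-Hochberg adjusted 0.12 over 6 tests).

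The differences in Tollo did not rest on the libraries that stood apart. Without ataxin-7 replicate 1 its log2 difference from OregonR was -1.67 (limma adjusted p = 0.00109), and without OregonR replicate 3 it was -1.86 (limma adjusted p = 0.00702). The ataxin-7 call was lost without OregonR replicate 2, where the difference was -1.52 and the limma adjusted p was 0.0559, and it held without each of the other libraries. The non-stop difference from OregonR ranged from -3.75 to -3.38 when each library was left out (limma adjusted p from 1.56e-06 to 0.000171), and that between non-stop and ataxin-7 from -2.03 to -1.75 (limma adjusted p from 1.74e-05 to 0.0245).

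Toll-6 was a low-abundance transcript at this stage, and it too was below OregonR in each mutant library. It had 0.241, 0.512 and 0.255 RPKM in ataxin-7 embryos, 0.0702, 0.138 and 0.311 RPKM in non-stop embryos, and 2.83, 2.50 and 0.773 RPKM in OregonR embryos. The ataxin-7 values correspond to 147, 344 and 146 reads, the non-stop values to 22, 41 and 93 reads, and the OregonR values to 1683, 1645 and 440 reads. All these values were above the level of 3 reads, which was 0.00447 to 0.0101 RPKM. No mutant library reached the lowest OregonR library, whereas the mutant genotypes overlapped each other.

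The mean of Toll-6 was 0.336 ± 0.153 RPKM in ataxin-7, 0.173 ± 0.124 RPKM in non-stop and 2.03 ± 1.10 RPKM in OregonR (SD, n = 3 each). The OregonR mean was 6.05 times that of ataxin-7 and 11.8 times that of non-stop. Because Toll-6 reached 1 RPKM only in OregonR 1 and 2, it missed the filter of 1 RPKM in 3 libraries and had no limma test there. The differences in mean log2(RPKM + 1) were -1.11 for ataxin-7 and -1.30 for non-stop relative to OregonR, each with the smallest p the exact permutation test allows, 0.1 (adjusted 0.12). Between non-stop and ataxin-7 the difference was -0.19 (exact permutation p = 0.3).

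Without the filter, limma gave Toll-6 an adjusted p of 0.0712 for ataxin-7 against OregonR, and of 0.0137 for non-stop against OregonR. The shares of all genes called lower were then 8.79% and 31.9%. When the reads themselves were recovered from the RPKM values and tested with limma-voom, Toll-6 fell by 2.50 on the log2 scale in ataxin-7 embryos (limma-voom adjusted p = 0.0331) and fell by 3.62 in non-stop embryos (limma-voom adjusted p = 0.0102), beside 14.3% and 39.4% of genes called lower. Between non-stop and ataxin-7 Toll-6 was not called without the filter (-0.19, limma adjusted p = 0.287, 9.43% of genes called lower) or with limma-voom (-1.12, limma-voom adjusted p = 0.205, 13.2% of genes called lower). Leaving out OregonR replicate 3, Toll-6 was called in ataxin-7 embryos without the filter (-1.46, limma adjusted p = 0.0145) and with limma-voom (-3.06, limma-voom adjusted p = 0.0124), and in non-stop embryos likewise (-1.65 and -4.19, limma and limma-voom adjusted p = 0.000226 and 7.47e-05). Leaving out ataxin-7 replicate 1, it was not called without the filter (-1.06, limma adjusted p = 0.105) and was called with limma-voom (-2.28, limma-voom adjusted p = 0.0302). The call for Toll-6 in ataxin-7 embryos therefore depended on the setting.

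Tollo exceeded Toll-6 by a smaller factor in non-stop libraries than in the others. Toll-6 stood at 3.88, 9.67 and 4.27% of Tollo RPKM in ataxin-7 libraries, 13.2, 16.8 and 25.0% in non-stop libraries, and 11.7, 10.7 and 5.42% in OregonR libraries. Every non-stop library had the larger share relative to every other library, while ataxin-7 and OregonR overlapped. The mean within-library log2 ratio of Toll-6 to Tollo, taken on RPKM + 1, was higher in non-stop by 2.22 relative to OregonR and by 1.70 relative to ataxin-7 (exact permutation p = 0.1 for each, the smallest possible, and 0.1 after adjustment over 3 tests). These differences were 2.10 without OregonR replicate 3 and 1.61 without ataxin-7 replicate 1, for which exact permutation p cannot go below 0.2. Adding 1 draws the log2 ratio of low values toward 0. Its mean was -0.66 in non-stop and -2.88 in OregonR with a pseudocount of 1, against -2.50 and -3.51 with none. Without a pseudocount the differences of non-stop from OregonR and from ataxin-7 were 1.01 and 1.70. The exact permutation p was then 0.1 for each, and 0.15 after adjustment over 3 tests. Between ataxin-7 and OregonR the direction itself depended on the pseudocount: 0.52 with a pseudocount of 1 (exact permutation p = 0.1), -0.39 with 0.1 and -0.69 with none (exact permutation p = 0.3 and 0.2), so no direction is given for it.

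**Figure D2:**
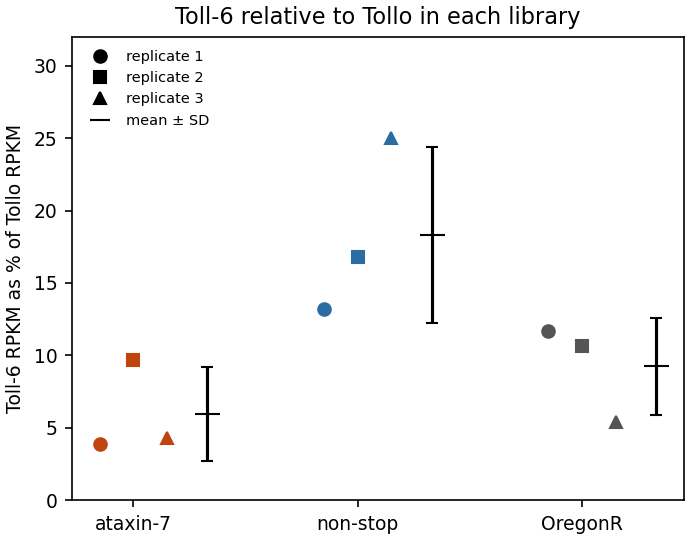
Toll-6 RPKM as a percentage of Tollo RPKM within each library. Points are libraries, marked by replicate, with the mean ± SD of 3 libraries to the right of each genotype. Non-stop libraries lie between 13.2 and 25.0%, above all ataxin-7 and OregonR libraries.

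Of the other Toll-family genes listed (Tl, Toll-4, Toll-7, Toll-9, Tehao and MstProx), only Tl was abundant. Tl, the gene of the maternally supplied Toll receptor, had 22.5, 26.0 and 30.0 RPKM in ataxin-7, 18.8, 17.0 and 17.9 RPKM in non-stop, and 22.1, 24.5 and 29.8 RPKM in OregonR. The ataxin-7 and OregonR libraries covered nearly the same range, with a log2 difference of 0.041 (95% interval -0.34 to 0.42, limma adjusted p = 0.860) that turned to -0.16 under quantile normalization and to -0.025 under median-of-ratios scaling. All non-stop libraries lay below the rest. Tl fell by 0.47 in non-stop relative to OregonR (SE 0.11, limma adjusted p = 0.00571) and fell by 0.52 relative to ataxin-7 (SE 0.12, limma adjusted p = 0.0255), the call against ataxin-7 being lost without any one of ataxin-7 replicates 2 and 3 or the non-stop libraries (lowest and highest such limma adjusted p 0.0519 and 0.103).

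Toll-7, whose protein is closely related to 18w, was below 0.1 RPKM in every mutant library, with 0.0392 to 0.0768 RPKM in ataxin-7, 0.0201 to 0.0422 RPKM in non-stop and 0.0774 to 0.213 RPKM in OregonR. Its RPKM was thus low in all genotypes. Every mutant library still lay below every OregonR library, by a narrow margin for ataxin-7 (0.0768 against 0.0774 RPKM). The highest values of the remaining genes in any library were 0.102 RPKM for Toll-9, 0.0128 RPKM for Toll-4, 0.00796 RPKM for MstProx and 0.00312 RPKM for Tehao. None of these 5 genes passed the filter on low values.

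The receptors act together with other surface proteins, adaptors and the actomyosin machinery. Of 24 listed genes of germband extension, 21 were in the table and 18 passed the filter in each comparison. In ataxin-7 embryos 7 of the 18 were called relative to OregonR (2 higher, 5 lower, median log2 difference -0.26), beside 32.4% of all genes tested (16.0% higher, 16.4% lower) and a median over all genes of 0.05. In non-stop embryos 16 of the 18 were called (8 higher, 8 lower, median -0.046), beside 82.7% of all genes (47.7% higher, 35.1% lower) and a median of 0.17. Between non-stop and ataxin-7 embryos 7 were called (5 higher, 2 lower, median 0.27), beside 32.2% (15.5% higher, 16.7% lower) and 0.12. The count of 7 in ataxin-7 against OregonR was 12 without ataxin-7 replicate 1, 1 without ataxin-7 replicate 2, and 0 without OregonR replicate 1 or 2. Of all genes tested, 3541 of 6893, 590 of 6920, 311 of 6863 and 201 of 6862 were then called. The count of 7 in non-stop against ataxin-7 was 14 without ataxin-7 replicate 1, 1 without ataxin-7 replicate 2 or 3, and 0 without any one of the non-stop libraries. Of all genes tested, 5550 of 6844 were called without ataxin-7 replicate 1, and 898 of 6862 and 1434 of 6865 without replicates 2 and 3. Without a non-stop library 749 of 6901 to 778 of 6892 were called. The list counts moved with those over all genes.

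Among them trn stood out by the size of its difference. It encodes Tartan, a leucine-rich-repeat surface protein that polarises cell boundaries together with the teneurin Ten-m. It had 3.20, 9.27 and 7.27 RPKM in ataxin-7, 0.480, 1.38 and 3.24 RPKM in non-stop, and 51.5, 47.0 and 23.5 RPKM in OregonR. OregonR was above all mutant libraries, and its replicate 3 was the lowest of the group, as for Tollo and Toll-6. The log2 differences of trn relative to OregonR were -2.48 in ataxin-7 (limma adjusted p = 0.0119) and -4.004 in non-stop (limma adjusted p = 0.000108). The ataxin-7 call was lost without OregonR replicate 1 or 2 (limma adjusted p = 0.0629 and 0.0684). That call held without ataxin-7 replicate 1 (-2.10, limma adjusted p = 0.00141) and without OregonR replicate 3 (-2.82, limma adjusted p = 0.0144). The difference between non-stop and ataxin-7, -1.53, was not called with all libraries (limma adjusted p = 0.0664) and was -1.90 without ataxin-7 replicate 1 (limma adjusted p = 0.00178).

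Ten-m, the partner of Tartan, had 1.00, 1.34 and 1.32 RPKM in ataxin-7, 0.542, 0.486 and 0.636 RPKM in non-stop, and 1.79, 1.87 and 1.81 RPKM in OregonR. The genotypes did not overlap. Its log2 differences were -0.35 for ataxin-7 against OregonR (limma adjusted p = 0.134), -0.86 for non-stop against OregonR (limma adjusted p = 3.86e-05) and -0.51 for non-stop against ataxin-7 (limma adjusted p = 0.0308). In both non-stop comparisons it passed the filter only through the 3 libraries of the other genotype.

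Cirl, a latrophilin-type adhesion receptor that binds the Tollo protein, went the other way. It had 17.7, 16.9 and 16.0 RPKM in ataxin-7, 24.2, 21.3 and 22.2 RPKM in non-stop, and 8.14, 9.47 and 11.2 RPKM in OregonR. Every mutant library was above every OregonR library. Cirl was higher by 0.76 in ataxin-7 (limma adjusted p = 0.0176) and by 1.16 in non-stop (limma adjusted p = 8.10e-05). It was 0.40 higher in non-stop than in ataxin-7 (limma adjusted p = 0.0213), but that difference was -0.14 when fold changes were centred within bins of gene length.

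Other called members differed in direction. In ataxin-7 embryos mthl1, whose product Mist is a receptor of the ligand Fog, fell by 1.16 on the log2 scale (limma adjusted p = 0.0123) and shg, the E-cadherin gene, fell by 0.87 (limma adjusted p = 0.0182), whereas cta, a G-protein alpha subunit of the same Fog pathway, was higher by 0.89 (limma adjusted p = 0.0125). In non-stop embryos shg fell by 1.28 (limma adjusted p = 7.16e-06), while Pi3K92E, a catalytic subunit of phosphoinositide 3-kinase, was higher by 1.48 (limma adjusted p = 2.03e-05) and cyst, which encodes a protein of cell junctions, by 1.27 (limma adjusted p = 0.000305). Relative to ataxin-7, non-stop embryos had higher cyst (1.57, limma adjusted p = 0.0392) and Ptp10D, a receptor tyrosine phosphatase (0.46, limma adjusted p = 0.0480). The ataxin-7 calls of mthl1, shg, cta and Cirl against OregonR were lost without ataxin-7 replicate 2, OregonR replicate 1 or OregonR replicate 2. The calls of cyst, Ptp10D and Cirl between non-stop and ataxin-7 were lost without any single library other than ataxin-7 replicate 1, and that of Ten-m without any single library. Ten-m missed the filter, and had no test, once an ataxin-7 library was left out of that comparison or an OregonR library out of non-stop against OregonR.

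**Figure D3:**
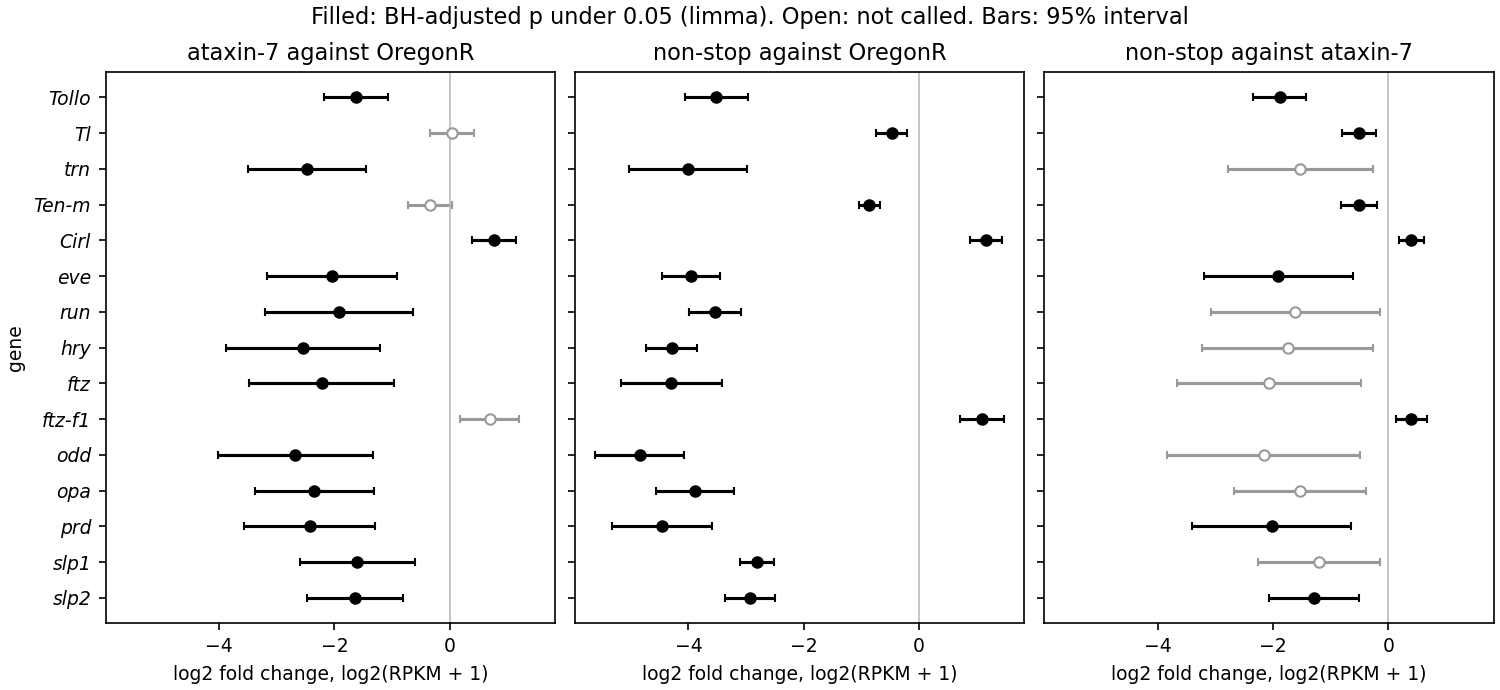
Log2 fold changes of Tollo, Tl, trn, Ten-m, Cirl and 10 pair-rule genes in the 3 comparisons, on the log2(RPKM + 1) scale, with 95% intervals from limma. Filled points were called at an adjusted p under 0.05 and open points were not. Tollo is called lower in all 3 panels, with intervals narrower than those of most pair-rule genes in the panels that hold ataxin-7.

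The pair-rule genes include the transcription factors that position the receptor stripes. Of 10 listed, 9 fell in ataxin-7 embryos relative to OregonR (median log2 difference -2.13), beside 16.4% of all genes tested and a median over all genes of 0.05. In non-stop embryos 9 fell relative to OregonR (median -3.92), beside 35.1% and a median of 0.17, and 1 of the 9, slp2, passed the filter only through the OregonR libraries. The remaining gene, ftz-f1, a maternally supplied cofactor of Ftz, rose by 1.09 in non-stop (limma adjusted p = 0.000537) and was 0.69 higher in ataxin-7 (limma adjusted p = 0.0504). eve had 8.13, 27.7 and 29.7 RPKM in ataxin-7, 3.02, 4.61 and 5.81 RPKM in non-stop, and 77.3, 99.5 and 70.8 RPKM in OregonR. run had 4.36, 19.3 and 21.1 RPKM in ataxin-7, 2.46, 3.23 and 4.70 RPKM in non-stop, and 54.1, 53.2 and 42.8 RPKM in OregonR. For both genes the genotypes separated, apart from run in ataxin-7 replicate 1, which lay within the non-stop range. The log2 differences of eve were -2.04 and -3.95 in ataxin-7 and non-stop (limma adjusted p = 0.0214 and 5.84e-06), and those of run were -1.92 and -3.54 (limma adjusted p = 0.0361 and 6.06e-06). Those of hry, ftz, odd, opa, prd, slp1 and slp2 ranged from -2.68 (odd) to -1.61 (slp1) in ataxin-7. In non-stop they ranged from -4.84 (odd) to -2.81 (slp1). Without ataxin-7 replicate 1 the ataxin-7 differences were -1.48 for eve and -1.26 for run (limma adjusted p = 0.000505 and 0.00056), and without OregonR replicate 3 they were -2.15 and -2.03 and no longer called (limma adjusted p = 0.0510 and 0.0783). The ataxin-7 count of 9 was 7 without OregonR replicate 3 and 0 without OregonR replicate 1 or 2. Of all genes tested, 714 of 6901, 88 of 6863 and 50 of 6862 were then called lower.

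Between non-stop and ataxin-7 embryos 4 of 10 pair-rule genes were called (median of the 10 -1.68), beside 32.2% of all genes tested: eve, prd and slp2 lower in non-stop and ftz-f1 higher. Of these, slp2 passed the filter only through the ataxin-7 libraries. This count was 9 without ataxin-7 replicate 1 and 0 without any other single library. Of all genes tested, 5550 of 6844 were called without ataxin-7 replicate 1. Without any other single library 749 of 6901 to 1434 of 6865 were called.

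The levels of Tollo and of the pair-rule genes parted in ataxin-7 replicate 1. In that library 9 pair-rule genes other than ftz-f1 stood at 0.192 to 0.355 of the mean of the other 2 ataxin-7 libraries, and trn at 0.386. Toll-6 stood at 0.628 and Tollo at 1.10, which made it the highest Tollo value of the genotype. Over all 7361 genes the median of this ratio was 1.13. In OregonR replicate 3, by contrast, both receptors were low relative to the mean of OregonR 1 and 2, Tollo at 0.598 and Toll-6 at 0.290, and trn at 0.477, beside a median pair-rule ratio of 0.745 and a median over all genes of 1.03.

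**Figure D4:**
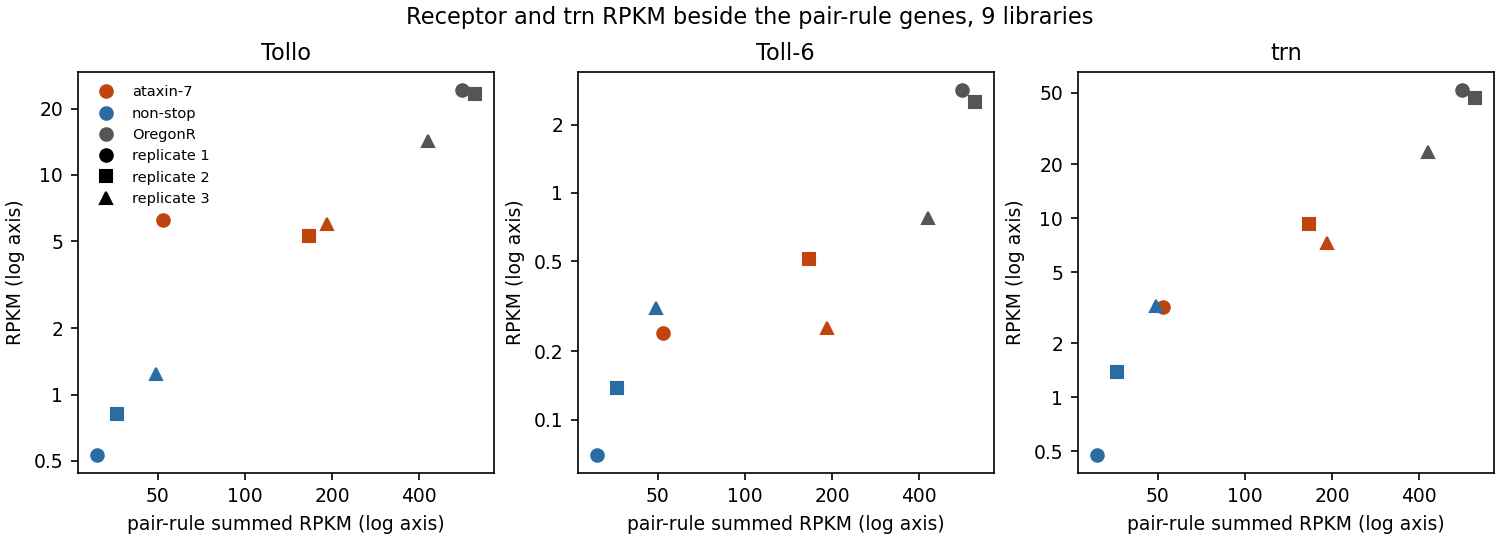
RPKM of Tollo, Toll-6 and trn against the summed RPKM of 10 pair-rule genes in the same library, on log axes. Points are libraries, coloured by genotype and marked by replicate. Ataxin-7 replicate 1, at a pair-rule sum of 52.2 RPKM, has the highest Tollo value of the ataxin-7 libraries and the lowest trn value among them.

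Markers of developmental progress also differed between the genotypes. The summed RPKM of 18 early zygotic genes was 684 to 3171 in ataxin-7, 417 to 533 in non-stop and 4903 to 5253 in OregonR, and 12 and 18 of the 18 were called lower in ataxin-7 and non-stop relative to OregonR, beside 16.4% and 35.1% of all genes. Of the 18, 1 passed the filter only through the OregonR libraries in the ataxin-7 comparison and 3 in the non-stop comparison. The count of 12 was 16 without ataxin-7 replicate 1, 3 without OregonR replicate 3, and 0 without ataxin-7 replicate 2 or OregonR replicate 1 or 2. Of all genes tested, 2094 of 6893, 714 of 6901, 305 of 6920, 88 of 6863 and 50 of 6862 were then called lower. The summed RPKM of 11 maternal genes was 494 to 1116 in ataxin-7, 987 to 1100 in non-stop and 153 to 322 in OregonR, and 6 and 10 of the 11 were called higher, beside 16.0% and 47.7% of all genes. The count of 6 was 7 without ataxin-7 replicate 1 and 6 without OregonR replicate 3, but 3 without ataxin-7 replicate 2, 2 without OregonR replicate 1 and 1 without OregonR replicate 2. Of all genes tested, 1447 of 6893, 1084 of 6901, 285 of 6920, 223 of 6863 and 151 of 6862 were then called higher. Between non-stop and ataxin-7, 4 of 15 early zygotic genes tested were called lower, and of the 11 maternal genes 2 were called higher and 1 lower, beside 16.7% of all genes lower and 15.5% higher. Without ataxin-7 replicate 1, 15 early zygotic genes were called lower and 9 maternal genes higher, beside 1945 and 3605 of 6844 genes tested. The early zygotic count was 0 without any other single library, beside 472 of 6901 to 758 of 6865 genes called lower. Without any one of the non-stop libraries 1 maternal gene was called higher and 0 lower. Of all genes tested, 268 of 6901 to 292 of 6892 were then called higher. All 18 early zygotic genes were lower in ataxin-7 replicate 1 than the mean of replicates 2 and 3, at 0.195 to 0.375 of it. All 11 maternal genes were higher, at 1.09 to 33.4 times that mean (median 3.20). In OregonR replicate 3, where both receptors were low, the early zygotic sum of 5044 RPKM lay between those of OregonR 1 and 2. The mean log2(RPKM + 1) of these 18 genes was lowest there, at 6.70 against 6.71 and 6.84. Of the 18, 12 were below the mean of OregonR 1 and 2 (median ratio 0.910). All 11 maternal genes were above that mean, at 1.40 to 2.80 times it. The part of embryo age or of retained maternal RNA in the receptor differences was not tested, and in these whole-embryo libraries fewer cells with a receptor and less RNA per cell cannot be told apart.

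Of 10 genes of later embryonic tissues, summed at 1.37 to 3.93 RPKM in ataxin-7, 0.536 to 1.36 RPKM in non-stop and 5.88 to 11.7 RPKM in OregonR, only elav was tested. It was called lower in ataxin-7 relative to OregonR, beside 16.4% of all genes. In the non-stop comparison elav passed the filter only through the OregonR libraries. In OregonR replicate 3, as for the receptors, all 6 later embryonic genes that averaged at least 0.1 RPKM in OregonR 1 and 2 were below that average (median ratio 0.549), and their part in the receptor values was not tested. Of 4 pole cell genes, gcl was called higher in ataxin-7 relative to OregonR, beside 16.0% of all genes. In ataxin-7 replicate 1 gcl stood at 2.40 times the mean of replicates 2 and 3. In non-stop relative to OregonR pgc and gcl were called higher and aub lower, beside 47.7% of all genes higher and 35.1% lower. Relative to ataxin-7, aub was called lower in non-stop, beside 16.7% of all genes. The 10 eggshell and follicle cell genes summed to 0.684 to 1.10 RPKM in ataxin-7, 0.880 to 1.10 RPKM in non-stop and 0.849 to 0.989 RPKM in OregonR, and none passed the filter.

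The genes whose pattern over the 9 libraries was most like that of Tollo, by Pearson correlation of log2(RPKM + 1), were Pino (r = 0.994), CG7988 (r = 0.993) and CG5808 (r = 0.992). For Toll-6 they were drm (r = 0.993), gcm (r = 0.992) and ex (r = 0.984). The receptors correlated with each other at r = 0.855, which ranked Tollo 635th among genes for Toll-6 and Toll-6 1341st for Tollo, and with trn at 0.955 for Tollo and 0.919 for Toll-6. Tollo correlated with eve at 0.948 and with run at 0.923, and Toll-6 with both at 0.831. Without ataxin-7 replicate 1 and OregonR replicate 3 the receptors correlated at 0.924 over 7 libraries, Tollo with trn, eve and run at 0.988, 0.990 and 0.990, and Toll-6 with them at 0.945, 0.868 and 0.865. The 3 genes named for each receptor then stood at 0.992 to 0.995 for Tollo and 0.991 to 0.997 for Toll-6. These values describe 9 libraries of 3 genotypes that share their processing.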

How the data were processed

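The deposited table holds RPKM per gene and library, made by the authors from reads aligned to the dm3 genome. The submitters' processing notes name CASAVA 1.8.2, TopHat2 2.0.13 and edgeR 3.14.0, and the counter and annotation are not given in the sources used here. Identifiers were matched to symbols of Ensembl release 115 (BDGP6), whose coordinates are given for BDGP6 only. RPKM + 1 was log2-transformed and tested with limma 3.58.1 (R 4.3.3, eBayes with trend) in fits of 2 genotypes, for genes at 1 RPKM or more in at least 3 libraries, with Benjamini-Hochberg adjustment over all genes tested and calls under 0.05. Single values were tested with exact permutation tests. Whole reads and gene lengths were recovered from the RPKM of 99.9% of 13809 genes (relative tolerance 3e-13). For 83.1% of 10678 genes with introns the length was within 5% of the genomic span, introns included, which lowers the RPKM of genes with long introns relative to Tollo and Toll-6. limma-voom on these reads (at least 10 in 3 libraries) was an alternative chosen after seeing the data, as were the receptor ratio without a pseudocount and the Toll-6 fits and correlations without the libraries that stood apart, and voom called 2624, 7458 and 2282 genes in ataxin-7 against OregonR, non-stop against OregonR and non-stop against ataxin-7. In simulated data, reads were recovered exactly for 99.8% of 10455 genes. The limma fits called 88.5 to 100% of the tested genes that were changed 1.5 to 4 times. False calls made up 4.32 to 8.68% of calls. That simulation had a uniform dispersion of 0.01 and no library that stood apart, unlike these data. Genes named were the receptors, all other Toll and pair-rule genes, Cirl, trn and Ten-m, the 4 called germband extension genes with the largest difference, and the 3 genes most correlated with each receptor, and 1 result that this rule would name is not reported here. Members and lists were chosen with earlier results of these data known. Reads are not independent molecules, and p-values measure only the spread between libraries, 3 per genotype. For limma that spread is moderated by the variance of all genes tested.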

Additional observations from a re-analysis of the deposited data

How the results depend on the processing

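Tollo kept its direction and its call under every other pseudocount, filter, scaling and fit tried, and lost the ataxin-7 call only when OregonR replicate 2 was left out. Leaving out each library gave log2 differences of -1.86 to -1.50 for Tollo and -1.46 to -0.91 for Toll-6 in ataxin-7 against OregonR, -3.75 to -3.38 and -1.65 to -1.09 in non-stop against OregonR, and -2.03 to -1.75 and -0.27 to -0.09 in non-stop against ataxin-7. Toll-6 gained a call with limma-voom (-2.50 in ataxin-7 and -3.62 in non-stop against OregonR) and, without the filter, in non-stop against OregonR (-1.30). Toll-6 was also called with limma-voom without ataxin-7 replicate 1 (-2.28) or OregonR replicate 3 (-3.06 in ataxin-7 and -4.19 in non-stop), and with no filter without OregonR replicate 3 (-1.46 and -1.65). The ratio of Toll-6 to Tollo in ataxin-7 against OregonR turned to -0.39 and -0.69 with a pseudocount of 0.1 and none. Tl in ataxin-7 against OregonR turned to -0.16 and -0.025 with quantile and median-of-ratios scaling, and ranged from -0.058 to 0.16 when each library was left out, being below 0 without ataxin-7 replicate 3 or OregonR replicate 1. Cirl in non-stop against ataxin-7 turned to -0.14 with centring within bins of gene length. The cause was not tested for any of these.

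Counts of called genes moved more. Leaving out each library gave 201 to 3541 genes in place of 2285 in ataxin-7 against OregonR (most without ataxin-7 replicate 1, fewest without OregonR replicate 2), and 749 to 5550 in place of 2241 in non-stop against ataxin-7, which was 1467 with length-bin centring. For the germband extension list these ranges were 0 to 12 and 0 to 14, for the pair-rule list 0 to 10 and 0 to 9, and for the other Toll receptors in non-stop against ataxin-7 0 to 1. In 1 fit of all 9 libraries 12 germband extension genes were called in ataxin-7 against OregonR, and 9 pair-rule genes in non-stop against ataxin-7. Over all genes that fit called 3333 of 7049 and 2744 of 6968. In non-stop against ataxin-7, germband extension counts were 4 without the filter, 3 with median-of-ratios scaling and 3 with length-bin centring, and pair-rule counts were 1 without the filter, 0 with quantile scaling, 0 with length-bin centring and 2 with voom. Over all genes, calls there were 2275 of 13380 without the filter, 1920 of 6968 with median-of-ratios scaling and 1467 of 6655 with length-bin centring. They were 2574 of 6968 with quantile scaling and 2282 of 8825 with voom. Without the filter and with voom, 2 other Toll receptors were called in non-stop against OregonR, beside 8140 of 13181 and 7458 of 9213 genes. Replicate numbers are shared by the genotypes. Deviations of same-numbered libraries correlated at -0.06 to 0.06, -0.24 to 0.11 and -0.12 to 0.44 in the 3 comparisons. Those of differently numbered libraries correlated at -0.09 to 0.11, -0.19 to 0.23 and -0.47 to 0.48. With 3 libraries per genotype these values cannot decide whether the numbers pair the libraries, and the main fits treated them as unpaired. With the replicate block, 471, 5895 and 1383 genes were called, with Tollo still called (limma adjusted p = 0.0462, 0.000214 and 0.0184). In ataxin-7 against OregonR the block left 1 germband extension gene and 0 pair-rule genes, and in non-stop against ataxin-7 it left 4 germband extension genes and 0 other Toll receptors.

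Depth limits the non-stop values of Toll-6: its 22 reads in replicate 1 have an exact 95% Poisson interval of 13.8 to 33.3 reads, for counting error only.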

Other observations

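Between Tollo and Toll-6 the annotation places 6 genes, of which 5 were in the table. CG7255, 61.4 kb from the end of Tollo, had 4.59, 1.21 and 0.748 RPKM in ataxin-7 libraries, 5.33, 4.96 and 4.68 RPKM in non-stop libraries, and 0.382, 0.276 and 0.187 RPKM in OregonR libraries. It was thus higher in every mutant library than in any OregonR library, and it was named after its values were seen. Best3 was at or below 0.0547 RPKM and Best4 at or below 0.0258 RPKM in every library.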
